A study of Mus musculus with 3 samples.

Results

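Expression levels of 10 marker genes of the epicardium were examined in the ventricle of the mouse heart at 3 stages. The genes are Wt1, Tcf21, Aldh1a1, Aldh1a2, Upk1b, Upk3b, Msln, Krt8, Krt18 and Krt19. They were chosen by name, as genes widely taken as markers of this cell layer, and with earlier results of these data known. Their names are carried by 11 loci of the deposited transcript annotation, of which 10 have a transcript that matches a reference mRNA, and these 10 loci stand for the genes. The expression table has 48626 loci in all, of which 20117 are mRNA loci and 12569 of those reached 1 fpkm (the number of fragments scaled to exon length and to library size) in at least 1 library. All 10 markers are among these 12569 loci.

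The libraries were made from ventricles of C57BL/6 mice at E10.5 and E13.5, where E stands for embryonic day, and at the age of 8 weeks (Adult), and the study used them to search for long non-coding RNAs of the developing heart. No group carries a genetic change or a treatment. Each stage has 1 library of stranded total RNA, so no test was possible and a change below is the difference between single libraries, without a replicate check. Where values are given as a series of 3, they stand in the order of the stages. How many hearts went into a library is not given in the sources used here.

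The epicardium is the mesothelial sheet that covers the heart. Its cells come from the proepicardium, spread over the looped heart tube, and in mid-gestation some of them lose their epithelial character, enter the wall and give rise to fibroblasts and mural cells of the coronary vessels. The embryonic layer makes retinoic acid and growth factors for the muscle beneath it, while in the healthy adult heart it is a thin and largely quiescent sheet. Wt1, Tcf21 and Aldh1a2 are the markers most often used for the embryonic layer, and uroplakins, mesothelin and simple-epithelial keratins are shared with the mesothelium of other organs.

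As a group, the markers were well expressed in both embryonic libraries and low in the adult one. The median level of the 10 genes was 18.2 fpkm at E10.5, 17.3 fpkm at E13.5 and 1.79 fpkm in the adult. The level of all 12569 mRNA loci had a median of 9.92, 10.3 and 6.94 fpkm in the same libraries. The summed level of the markers was 179, 187 and 35 fpkm, which is 0.0528%, 0.0432% and 0.0106% of the fpkm of all mRNA loci. Since whole ventricle was sequenced, fewer epicardial cells and less RNA per cell cannot be told apart. For comparison, the 6 cardiomyocyte markers examined lay between 18.8 and 12217 fpkm.

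**Figure D1:**
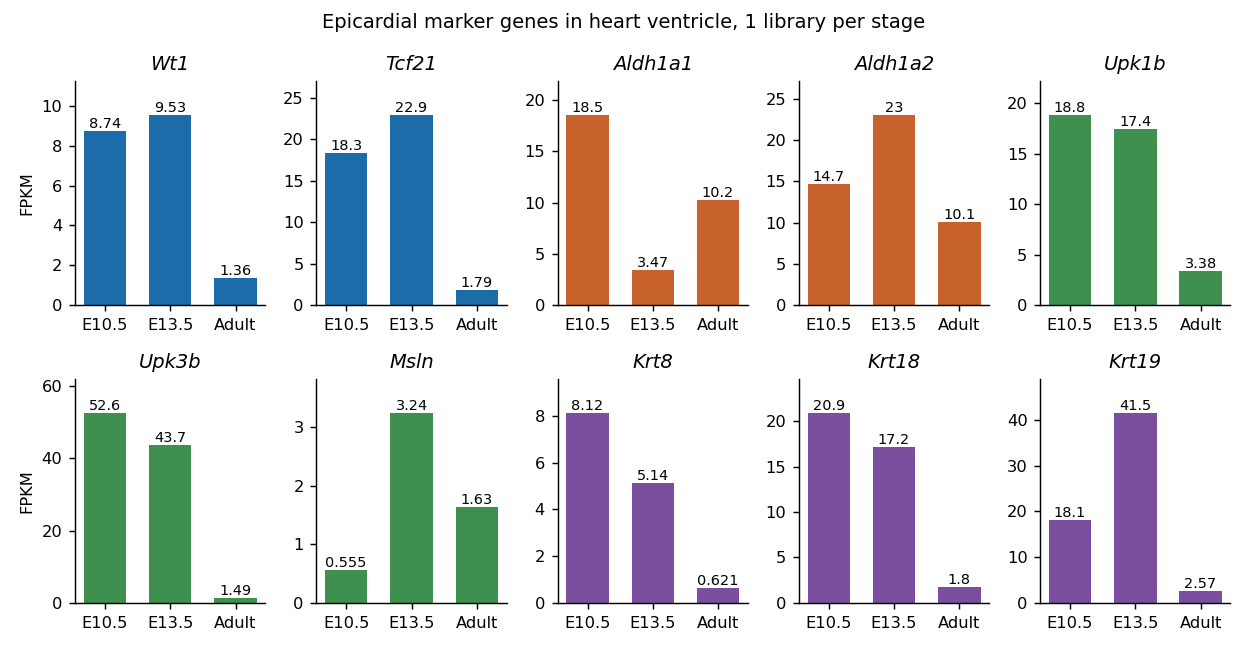
Expression levels of the 10 epicardial marker genes, with 1 panel per gene, the library on the horizontal axis and fpkm on a linear vertical axis that starts at 0 and differs between panels. Each bar is a single library, so there are no error bars, and the adult bar is the lowest of its panel for every gene except Aldh1a1 and Msln.

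Wt1 encodes a zinc finger transcription factor needed for the epicardium to form and for its cells to enter the heart wall. Its level was 8.74 fpkm at E10.5, 9.53 fpkm at E13.5 and 1.36 fpkm in the adult. The embryonic values lay close together and the adult value stood apart below them. On the log2(fpkm + 1) scale, used for all changes here, Wt1 differed by 0.11 between the embryonic libraries (-0.03 after rescaling by median-of-ratios factors) and by -2.16 from E13.5 to the adult, a 6.99-fold lower fpkm value in the adult. Among the 12569 mRNA loci, 8.34% had a change from E13.5 to the adult that was at or below that of Wt1.

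The Wt1 locus (mm10, chromosome 2, plus strand, 105126529 to 105173910) holds 5 transcripts in the deposited annotation, 1 matching the RefSeq mRNA of 10 exons and 4 assembled from the reads. The assembled transcripts carry both well-known alternatives of Wt1 splicing. Exon 5, a cassette of 51 bases at 105144142 to 105144192, is present in 3 transcripts and absent from 2. Exon 9 ends at 105170018 in 2 transcripts and 9 bases earlier, at 105170009, in 3. This is the splice choice that adds or removes the residues lysine, threonine and serine between zinc fingers. One of the assembled transcripts starts 4540 bp downstream of the others, at 105131069. The table gives 1 value per locus, so the shares of these forms at each stage are not known.

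A non-coding locus, AI314831 (chromosome 2, minus strand, 105076538 to 105126510), starts 19 bp from Wt1 on the opposite strand. Its level was 1.58 fpkm at E10.5, 1.81 fpkm at E13.5 and 0.0938 fpkm in the adult, 18%, 19% and 6.88% of that of Wt1. Like Wt1 it was near level between the embryonic libraries (change 0.12) and lower in the adult (change -1.36). At the approximate depth the adult value of AI314831 rests on very few fragments, so its share of Wt1 there is uncertain.

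Tcf21 encodes a basic helix-loop-helix transcription factor of epicardial cells and of the fibroblasts that descend from them. The locus (chromosome 10, minus strand, 22817275 to 22820128) holds 1 transcript of 2 exons. Tcf21 was measured at 18.3 fpkm at E10.5, 22.9 fpkm at E13.5 and 1.79 fpkm in the adult. Both embryonic values were over 10-fold above the adult one, with changes of 0.31 from E10.5 to E13.5 and -3.10 from E13.5 to the adult. The ratio of Tcf21 to Wt1 within a library, which does not depend on the scaling between libraries, was 2.09, 2.4 and 1.31.

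The eleventh locus that carries a marker's name is an unspliced transcript antisense to Tcf21 (chromosome 10, plus strand, 22816516 to 22817312), which overlaps the end of Tcf21 by 38 bases. It was measured at 0.261, 1.6 and 0.192 fpkm, or 1.43%, 6.99% and 10.7% of Tcf21. At E10.5 and in the adult its value rests on very few fragments, so the shares of Tcf21 in those libraries are uncertain. The library kit keeps strand, but the setting used in the counting is not given in the sources used here, so reads of the overlap may not be separated. The antisense locus was left out of the counts of markers.

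Aldh1a2 and Aldh1a1 encode retinaldehyde dehydrogenases, which carry out the last step of retinoic acid synthesis. Aldh1a2 is the main enzyme of this kind in the embryo. Its locus (chromosome 9, plus strand, 71215789 to 71296243) had 14.7 fpkm at E10.5, 23 fpkm at E13.5 and 10.1 fpkm in the adult. Aldh1a2 was thus highest at E13.5, and its adult value was nearer to its E10.5 value than those of the transcription factors were. The change was 0.61 from E10.5 to E13.5 and -1.11 from E13.5 to the adult, just past 1, the size at which a change is counted here. With the libraries rescaled by median-of-ratios factors, the latter became -0.57 and did not reach it.

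Aldh1a1 had the opposite course. It was measured at 18.5 fpkm at E10.5, 3.47 fpkm at E13.5 and 10.2 fpkm in the adult, so the E13.5 library was the low one. Its fpkm value was 5.33-fold lower at E13.5 than at E10.5 (change -2.13) and 2.94-fold higher again in the adult (change 1.33). A change from E10.5 to E13.5 at or below that of Aldh1a1 was found in 0.159% of mRNA loci. A drop of at least 1 followed by a return of at least 1 was seen in 141 of the 12569 mRNA loci (1.12%). The ratio of Aldh1a2 to Aldh1a1 was 0.792, 6.62 and 0.992.

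The Aldh1a1 locus (chromosome 19, plus strand, 20492715 to 20643462) joins transcripts of more than 1 gene, which bears on its value. Of its 5 transcripts, 1 is the RefSeq mRNA of Aldh1a1, which starts at 20601982, and 1 is the non-coding RNA E030003E18Rik, which starts 109267 bp upstream at 20492715. The other 3 are assembled transcripts that run from the upstream region through the exons of Aldh1a1, 2 from 20492715 and 1 from 20493154. The fpkm value sums over all of them. The part of the non-coding RNA in the stage pattern was not tested.

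Promoter sequences from RefSeq (GRCm38.p6, the assembly of mm10), running from 250 bases before to 50 bases after an annotated start, were matched by symbol to 6 of the 10 markers, with 7 promoters. Wt1, Upk1b, Msln and Krt19 were not matched. The promoters of the dehydrogenases are shown because the sister genes had unlike stage patterns and because Aldh1a1 has separate starts. Sequences run 5′ to 3′ on the gene's strand, and capitals mark matches to any of 5 motifs searched on both strands: GGAATG, the site of TEAD factors, AGATAA, a site of GATA-binding factors, GTGGGAG, the core of the WT1 motif, TATAAA, the TATA box, and GGGCGG, the site of Sp1.
Aldh1a2, chr9:71215539-71215838, plus strand: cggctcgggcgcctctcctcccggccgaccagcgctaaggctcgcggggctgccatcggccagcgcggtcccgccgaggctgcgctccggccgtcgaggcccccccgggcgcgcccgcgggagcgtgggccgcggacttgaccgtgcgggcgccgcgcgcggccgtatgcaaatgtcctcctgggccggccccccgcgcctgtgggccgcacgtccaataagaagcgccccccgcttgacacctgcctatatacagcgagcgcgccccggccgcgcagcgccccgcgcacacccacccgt
Aldh1a1, RefSeq mRNA start, chr19:20601718-20602017, plus strand: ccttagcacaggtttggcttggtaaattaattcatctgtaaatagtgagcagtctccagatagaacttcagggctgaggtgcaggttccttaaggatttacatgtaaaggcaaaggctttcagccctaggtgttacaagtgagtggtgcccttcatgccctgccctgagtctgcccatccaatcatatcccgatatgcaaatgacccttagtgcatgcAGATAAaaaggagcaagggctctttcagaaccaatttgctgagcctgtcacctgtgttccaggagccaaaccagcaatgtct
Aldh1a1, upstream start, chr19:20492333-20492632, plus strand: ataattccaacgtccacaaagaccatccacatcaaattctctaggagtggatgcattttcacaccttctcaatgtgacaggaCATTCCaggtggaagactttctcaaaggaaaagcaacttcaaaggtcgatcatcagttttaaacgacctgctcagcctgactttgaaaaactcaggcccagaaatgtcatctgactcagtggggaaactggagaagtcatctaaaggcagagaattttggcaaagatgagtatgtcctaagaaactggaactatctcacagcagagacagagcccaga
The promoters differ in base composition. The one of Aldh1a2 is 78% G or C with 50 CpG dinucleotides, and holds none of the 5 motifs. That of the Aldh1a1 mRNA start is 47% G or C with 1 CpG, and that of the upstream start 43.3% with 3. The median over the 32851 promoters in the RefSeq table is 52.7% and 7 CpG. Positions are counted from the RefSeq start of each promoter, which for Aldh1a1 is 20601968 for the mRNA, 14 bp from the deposited start, and 20492583 upstream, 132 bp from it. AGATAA stands at -32 from the mRNA start of Aldh1a1, and the reverse complement of GGAATG at -168 from the upstream start. A match is a description of the letters and is not evidence of binding, and these motifs are found in 11.2% and 14.7% of all promoters.

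The rest of the retinoic acid pathway was taken from a list. Of 17 other genes of the pathway, 14 reached 1 fpkm in at least 1 library. From E10.5 to E13.5, 6 of the 14 were higher and 0 lower by 1 or more, with a median change of 0.80, where 5.89% of all expressed mRNA loci were higher and 4.85% lower. Between E13.5 and the adult, 4 were higher and 5 lower, with a median change of -0.43, where 13.0% of mRNA loci were higher and 32.1% lower. With median-of-ratios factors the 5 lower became 3, where 18.9% of mRNA loci were lower. Crabp1, which binds retinoic acid in the cytoplasm, was highest at E13.5, with 1.79, 25.3 and 0.0641 fpkm. Dhrs3, which reduces retinaldehyde back to retinol (2.9, 13 and 54.8 fpkm), and the retinoid X receptor gene Rxrg (0.691, 0.676 and 27.7 fpkm) had their highest value in the adult.

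Upk3b, a uroplakin family gene expressed in mesothelium, had the highest level of all 10 markers in both embryonic libraries and the largest change into the adult. Its level was 52.6 fpkm at E10.5, 43.7 fpkm at E13.5 and 1.49 fpkm in the adult. The adult value was 29.3-fold below the E13.5 value (change -4.17) and 35.3-fold below the E10.5 value (change -4.43). Only 1.3% of mRNA loci had a change from E13.5 to the adult at or below that of Upk3b. Upk3b thus went from the top of the marker list in the embryo to below the median of the markers in the adult. The locus lies on chromosome 5, plus strand, at 136038496 to 136045958, and its promoter is shown because it belongs to the marker with the largest change.
Upk3b, chr5:136038246-136038545, plus strand: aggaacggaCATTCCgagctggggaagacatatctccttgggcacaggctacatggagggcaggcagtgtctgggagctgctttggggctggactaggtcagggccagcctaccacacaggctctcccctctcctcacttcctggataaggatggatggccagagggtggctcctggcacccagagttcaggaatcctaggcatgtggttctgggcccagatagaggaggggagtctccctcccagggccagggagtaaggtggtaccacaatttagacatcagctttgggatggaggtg
It is 58.7% G or C with 2 CpG, and the capitals mark the reverse complement of GGAATG at position -241.

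Upk1b encodes a tetraspanin that forms plaques with other uroplakins in the bladder lining. It was measured at 18.8 fpkm at E10.5, 17.4 fpkm at E13.5 and 3.38 fpkm in the adult. The embryonic libraries differed little (change -0.11), and the adult value was 5.14-fold below that of E13.5 (change -2.07). The ratio of Upk1b to Upk3b was 0.357, 0.397 and 2.27, so the order of the uroplakins was turned in the adult library. The other uroplakin genes were near 0 throughout. Among Upk1a, Upk2, Upk3a and the Upk3b-like gene 2310043J07Rik, the highest value was 0.675 fpkm, for Upk1a at E10.5, and Upk3a was listed at 0 in all 3 libraries.

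Of the 4 genes next to Upk1b and Upk3b, 2 reached 1 fpkm in any library. Both of these were lower in the adult than at E13.5 by 1 or more, where 32.1% of all mRNA loci were. B4galt4, a galactosyltransferase gene 4096 bp from Upk1b (chromosome 16, minus strand, 38773141 to 38800341), had 15.9, 15.7 and 4.93 fpkm and a change of -1.50 from E13.5 to the adult. Dtx2, which encodes a Deltex ubiquitin ligase and lies 5615 bp from Upk3b, had 7.64, 8.46 and 1.48 fpkm and a change of -1.93. On the other side of Upk3b, 2310043J07Rik at 11309 bp was listed at 0, 0.0865 and 0 fpkm, and 4930435E12Rik, the other neighbour of Upk1b at 11864 bp, at 0, 0 and 0.0202 fpkm. Neighbours of other markers were lower too, namely Tbpl1 and Eya4 beside Tcf21 (changes -1.34 and -1.29) and Eif4b beside Krt18 (-1.03). Eif1 beside Krt19 was higher (1.02), and the other neighbours that are not markers changed by less than 1.

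Msln encodes mesothelin, a lipid-anchored surface glycoprotein of mesothelial cells. It was the lowest marker in both embryonic libraries, with 0.555 fpkm at E10.5 and 3.24 fpkm at E13.5, and had 1.63 fpkm in the adult. Its course differed from that of the other surface proteins, with a 5.83-fold higher value at E13.5 than at E10.5 (change 1.45) and an adult value between the embryonic ones. A change from E10.5 to E13.5 at or above that of Msln was found in 2.1% of mRNA loci. From E13.5 to the adult the change was -0.69, close to the median of all mRNA loci (-0.50). At the approximate depth, the E10.5 value of Msln rests on about 17 fragments. The locus lies on chromosome 17, minus strand, at 25748220 to 25754368.

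Krt8, a type II keratin, and Krt18, a type I keratin, pair to form the filaments of simple epithelia. Krt18 had 20.9 fpkm at E10.5, 17.2 fpkm at E13.5 and 1.8 fpkm in the adult. Krt8 was measured at 8.12 fpkm at E10.5, 5.14 fpkm at E13.5 and 0.621 fpkm in the adult, where it was the lowest of the 10 markers. Both keratins were thus slightly lower at E13.5 than at E10.5 and far lower in the adult. The change from E13.5 to the adult was -2.70 for Krt18, 9.56-fold in fpkm, and -1.92 for Krt8, 8.28-fold in fpkm. The ratio of Krt8 to Krt18 moved little, with 0.387, 0.299 and 0.345 in the 3 libraries. The adult value of Krt8 rests on about 15 fragments.

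The genes lie head to head on chromosome 15, with Krt8 on the minus strand (101996711 to 102004342) and Krt18 on the plus strand (102028216 to 102032541). Their starts are 23874 bp apart with 0 loci between them. Both promoters are shown because the neighbours kept their ratio across the stages.
Krt8, chr15:102004293-102004592, minus strand: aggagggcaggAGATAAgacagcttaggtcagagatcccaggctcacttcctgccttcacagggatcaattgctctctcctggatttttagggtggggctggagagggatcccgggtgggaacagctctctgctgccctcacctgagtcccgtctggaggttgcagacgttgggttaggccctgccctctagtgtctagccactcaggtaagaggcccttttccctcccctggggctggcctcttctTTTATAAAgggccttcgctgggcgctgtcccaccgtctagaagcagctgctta
Krt18, chr15:102027966-102028265, plus strand: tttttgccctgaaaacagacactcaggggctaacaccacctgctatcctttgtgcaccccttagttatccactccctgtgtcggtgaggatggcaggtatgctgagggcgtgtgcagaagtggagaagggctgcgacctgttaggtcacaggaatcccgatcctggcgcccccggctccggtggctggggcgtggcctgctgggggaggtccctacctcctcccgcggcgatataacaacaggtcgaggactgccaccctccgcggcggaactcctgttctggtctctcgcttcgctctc
The Krt18 promoter is 61.3% G or C with 17 CpG and holds none of the motifs. The Krt8 promoter is 58% G or C with 6 CpG, has AGATAA at position -239, and has TATAAA on both strands in overlapping matches at -3 and -1. TATAAA is found in 13.6% of all promoters. None of the 7 marker promoters holds GTGGGAG or GGGCGG, which are found in 9.73% and 35.7% of all promoters. The Tcf21 promoter has AGATAA at position -31.

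Krt19, a small type I keratin of mesothelium and simple epithelia, was the marker with the clearest peak at E13.5. Its locus had 18.1 fpkm at E10.5, 41.5 fpkm at E13.5 and 2.57 fpkm in the adult. The value was 2.29-fold higher at E13.5 than at E10.5 (change 1.15) and 16.1-fold lower in the adult than at E13.5 (change -3.57). The ratio of Krt19 to Krt18 was 0.865, 2.41 and 1.43. This locus is joined too. It runs from 100140557 to 100269871 on the minus strand of chromosome 11 and takes in the keratin genes Krt14, Krt17 and Krt42, with 9 transcripts. Of these, 4 match the RefSeq mRNAs of the 4 genes, and 4 of the 5 assembled ones begin at Krt14, Krt17 or Krt42 and end at the end of Krt19. Type I keratins are alike in sequence, and how reads shared between them were counted is not given in the sources used here, so the value is that of the joined locus. The neighbouring Krt15, 4608 bp away, had 0.423, 0.101 and 0.0262 fpkm.

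Most other keratin genes with a locus of their own did not reach 1 fpkm in any library. The levels of Krt14 and Krt17 are not known, since they share the joined locus of Krt19. Of 13 keratins and keratin linkers with a locus of their own, 6 reached 1 fpkm in at least 1 library. They are the keratins Krt7, Krt10 and Krt20 and the linkers Dsp, Ppl and Plec. Krt7, a type II keratin of simple epithelia and mesothelium, had 8.96, 14.4 and 0.557 fpkm, with a change of -3.31 from E13.5 to the adult. Of the 6, 2 were higher in the adult than at E13.5 by 1 or more, where 13.0% of all mRNA loci were. Another 2 were lower, near the 32.1% of all mRNA loci that were. The higher ones encode linkers of intermediate filaments. Dsp, which encodes desmoplakin of the intercalated disc, had 52.7, 36.8 and 163 fpkm (change 2.12), and Plec, which encodes plectin, had 13.7, 7.87 and 23.2 fpkm (change 1.45).

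Counted together, 3 of 10 markers differed by 1 or more between the embryonic stages, in both directions, and most were lower in the adult than at E13.5. From E10.5 to E13.5, 2 of 10 markers, Msln and Krt19, were higher by 1 or more, against a background of 5.89% of the 12569 mRNA loci. With median-of-ratios factors Krt19 fell just short of 1 and Msln alone was higher, where the background was 4.18%. Without this rescaling, 1 of 10 in the same comparison, Aldh1a1, was lower, against 4.85%. The median change of the markers was 0.00 and that of all mRNA loci was 0.17.

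From E13.5 to the adult, 8 of 10 markers were lower by 1 or more, where the background was 32.1% of mRNA loci. Aldh1a1 was the 1 marker that was higher, against a background of 13.0%, and Msln did not reach 1. The median change was -2.11 for the markers and -0.50 for all mRNA loci. Rescaled by median-of-ratios factors, which bring the median of all mRNA loci to -0.03, 7 markers stayed lower and the background split turned to 18.9% lower and 20.8% higher.

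From E10.5 to the adult, 7 of 10 markers were lower by 1 or more, against 27.3% of mRNA loci. In this comparison 0 markers were higher, against 14.8%, and Aldh1a1, Aldh1a2 and Msln did not reach 1 in either direction. The median change was -2.30, beside -0.40 for all mRNA loci. The comparisons share libraries, so their counts are not separate pieces of evidence.

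**Figure D2:**
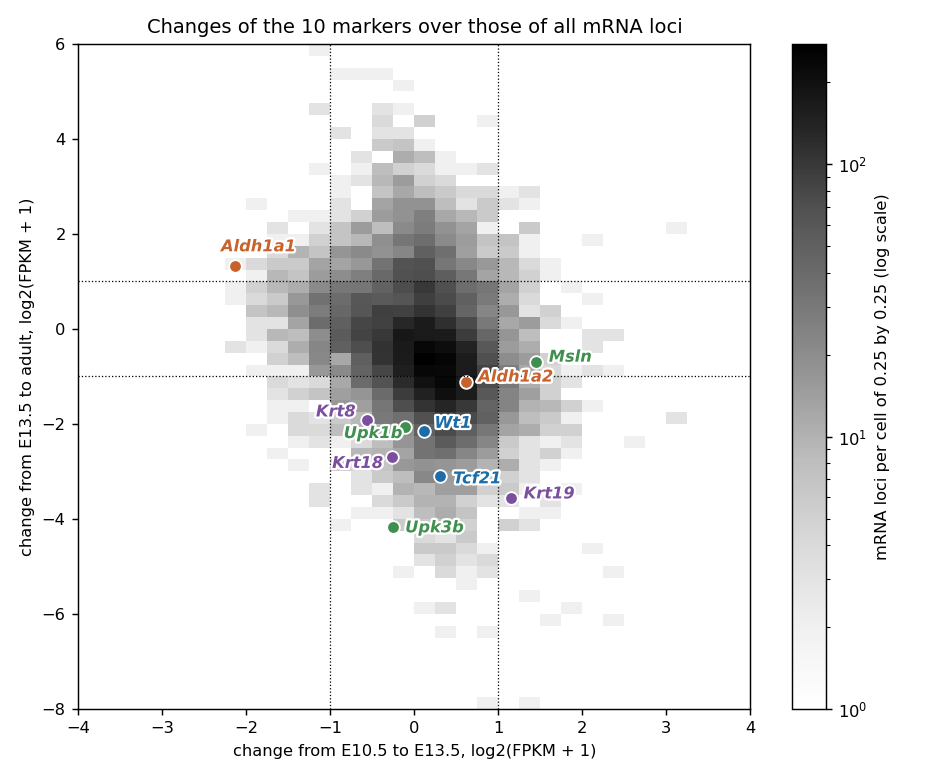
Change of each marker from E10.5 to E13.5 (horizontal) and from E13.5 to the adult (vertical), both as differences of log2(fpkm + 1), over the density of all 12569 mRNA loci in grey on a log colour scale. Points are coloured by role (transcription factors, dehydrogenases, surface proteins, keratins), dotted lines mark changes of 1, and Aldh1a1 stands alone at the upper left while 8 markers lie below the lower line.

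The rank of a marker within its own library does not depend on how libraries were scaled to each other. Among the 12569 mRNA loci, the markers had a median percentile of 69.1, 65.3 and 18.4 in the order of the stages. Above the median of all mRNA loci were 7, 6 and 2 markers. The adult pair were the dehydrogenases, Aldh1a1 at percentile 61.7 and Aldh1a2 at 61.5. Among all 20117 mRNA loci, silent ones included, the percentiles are higher, with adult values of 47.4 for Upk3b, 46.7 for Wt1 and 76.1 for Aldh1a1. Among the 12569 loci, Upk3b went from percentile 90.8 at E10.5 and 86.2 at E13.5 to 15.9 in the adult. Wt1 stood near the middle of the embryonic libraries, at 46.2 and 47.9, and at 14.7 in the adult.

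The order of the levels also changed. At E10.5 it ran Upk3b, Krt18, Upk1b, Aldh1a1, Tcf21, Krt19, Aldh1a2, Wt1, Krt8 and Msln from high to low. In this order Krt18, Upk1b, Aldh1a1, Tcf21 and Krt19 all lay between 18.1 and 20.9 fpkm, and without replicates such neighbours cannot be ranked. At E13.5 Upk3b and Krt19 led with 43.7 and 41.5 fpkm, followed by Aldh1a2 and Tcf21 at 23 and 22.9 fpkm. In the adult Aldh1a1 and Aldh1a2 led with 10.2 and 10.1 fpkm, and the other 8 markers lay between 0.621 and 3.38 fpkm. At the approximate depth these 8 values rest on about 15 to 85 fragments each.

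**Figure D3:**
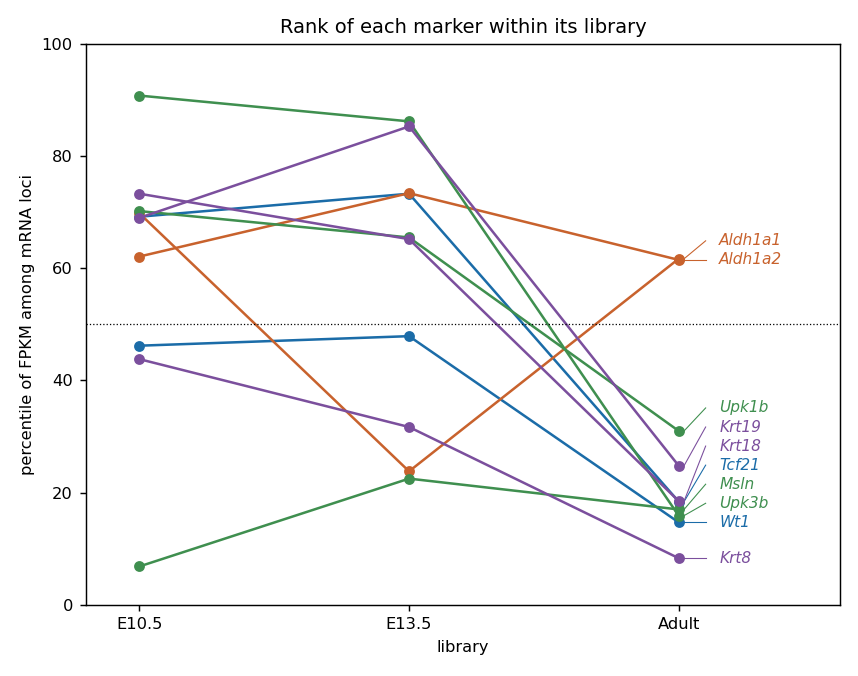
Percentile of each marker's fpkm among the 12569 mRNA loci of the same library, with 1 line per gene coloured by role and the dotted line at the middle of all mRNA loci. Of the 10 lines, those of Aldh1a1 and Aldh1a2 end above the dotted line in the adult, at 61.7 and 61.5, and that of Aldh1a1 dips to 23.8 at E13.5.

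A second list of epicardial and mesothelial genes, none of them among the 10 markers, was examined for comparison. It too was chosen with earlier results of these data known. Of 16 genes listed, 14 reached 1 fpkm in a locus of their own. Between E13.5 and the adult 11 of the 14 were lower and 1 higher by 1 or more, with a median change of -1.92, beside 32.1% lower and 13.0% higher among all mRNA loci. From E10.5 to E13.5, 4 were higher and 1 lower, with a median of 0.28, beside 5.89% and 4.85%. With median-of-ratios factors 2 were higher and 2 lower, beside 4.18% and 6.29%. Tbx18, a T-box transcription factor of the proepicardium and epicardium, had 33.1 fpkm at E10.5, 28.8 fpkm at E13.5 and 1.83 fpkm in the adult, a change of -3.40. Cav1, which encodes caveolin and is also a gene of endothelial and other cells, was the 1 gene that was higher, with 10.4, 47.6 and 188 fpkm (change 1.96).

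Genes of the steps downstream of the epicardium were compared between E13.5 and the adult. The list of transcription factors and cadherins of the transition to mesenchyme, which also holds Vim, had 8 expressed genes. Of these 8, 1 was higher and 4, with Vim among them, were lower. Their median was -0.86, and 13.0% of all mRNA loci were higher and 32.1% lower. With median-of-ratios factors 2 were higher and 3 lower, where 20.8% of all mRNA loci were higher and 18.9% lower. Among these, Vim, the intermediate filament of mesenchyme, had 595, 965 and 101 fpkm (change -3.25), and the basic helix-loop-helix gene Twist1 had 9.16, 23 and 0.428 fpkm (change -4.07). Cdh2, the cadherin of cardiomyocytes as well as of epicardium, had 69.9, 37.4 and 73.8 fpkm (change 0.96).

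Among 12 genes of epicardial signalling, 6 were lower and 0 were higher in this comparison (32.1% and 13.0% of all mRNA loci), with a median of -1.02. With median-of-ratios factors 4 were lower and 2 higher, where 18.9% of all mRNA loci were lower and 20.8% higher. Igf2, a growth factor of the embryonic epicardium and of other embryonic tissues, had 566, 451 and 3.19 fpkm (change -6.76). Fgfr2, a fibroblast growth factor receptor, had 4.83, 11.2 and 0.279 fpkm (change -3.26). Tgfbr3, which encodes betaglycan, was high at E10.5 with 44.7 fpkm, against 8.7 fpkm at E13.5 and 15.2 fpkm in the adult.

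Markers of other cell types of the ventricle were read in the same way. Of 8 fibroblast markers, 4 were higher at E13.5 than at E10.5 by 1 or more (5.89% of all mRNA loci), and from E13.5 to the adult 2 were higher and 4 lower (13.0% and 32.1% of all mRNA loci), with a median of -1.12. With median-of-ratios factors the 4 lower became 2, where 18.9% of all mRNA loci were lower. The fibroblast matrix gene Dcn reached its highest level in the adult, with 49.5, 75.9 and 351 fpkm, while Postn peaked at E13.5 with 25.8, 188 and 18.6 fpkm. From E13.5 to the adult the median change was 0.49 for 7 mural markers, 0.10 for 7 endothelial markers, 0.95 for 6 cardiomyocyte markers and 1.55 for 6 macrophage markers. Genes lower by 1 or more numbered 2 of 7 in the mural list, Acta2 and Tagln, which is near the 32.1% of all mRNA loci, and 0 in the other 3 lists. Erythroid markers had a median change of -8.40, below that of the epicardial markers, with 4 of 5 lower, beside 32.1% of all mRNA loci.

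**Figure D4:**
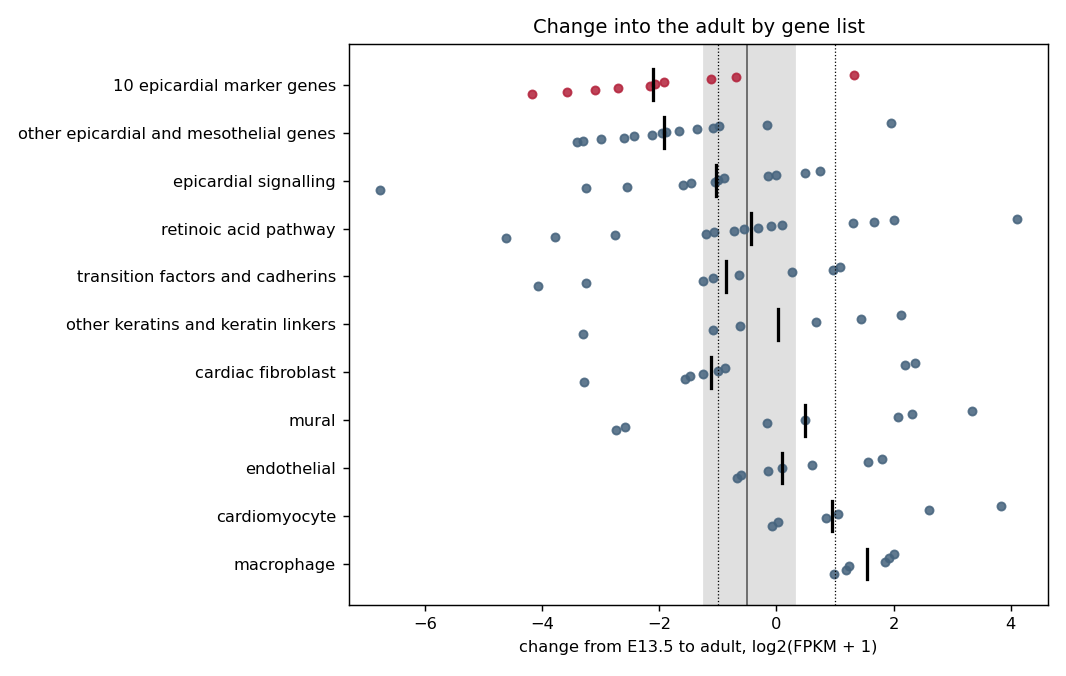
Change from E13.5 to the adult as difference of log2(fpkm + 1), with 1 point per gene that reached 1 fpkm in any library, by gene list; black bars are list medians, the grey line and band are the median and quartiles of all mRNA loci (-0.50, from -1.23 to 0.32), and dotted lines mark changes of 1. The 10 markers (median -2.11) and the other epicardial and mesothelial genes (median -1.92) have the lowest medians of the lists drawn. Macrophage markers (median 1.55) have the highest. Erythroid markers (median -8.40), liver markers (median -1.65) and the 1 expressed adipocyte marker (Car3, change -4.33) are not drawn.

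Several of the 10 markers are also expressed in epithelia and mesothelia outside the heart, so markers of neighbouring tissues were read in the same libraries. None of 8 markers of foregut and lung epithelium reached 1 fpkm in any library. Their sums were 0.813, 1.78 and 1.3 fpkm, and Nkx2-1 and Sftpc were listed at 0 in all 3 libraries. None of 6 markers of kidney and urogenital ridge reached 1 fpkm either, with sums of 0.412, 0.425 and 0.0894 fpkm and Lhx1 listed at 0 in all 3 libraries. Of 5 adipocyte markers only Car3, which muscle also expresses, passed 1 fpkm, with 7.45, 28.1 and 0.447 fpkm. Liver markers were low but present, with sums of 14.8, 40.4 and 18 fpkm, mostly from Trf and Afp. Between E13.5 and the adult 5 of 6 expressed liver markers and 4 of 5 erythroid markers were lower by 1 or more, beside 32.1% of all mRNA loci. Most epicardial markers were lower too, and the part of liver and erythroid cells in the result was not tested.

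For each marker, the mRNA loci with the most similar levels over the 3 libraries were found by Euclidean distance on the log2(fpkm + 1) scale. With 3 values per gene, likeness says only that the levels are close. Upk3b had the fewest close neighbours, 6 loci within 0.5, and nearest to it were Uhrf1 (distance 0.19), Ccne2 (0.24) and Tmsb10 (0.34). Krt19 and Aldh1a1 had 7 each. Nearest to Krt19 were Gpx7 (0.28), Pth1r (0.34) and Cdc45 (0.37), and nearest to Aldh1a1 were Tmem131 (0.19), Cbl (0.20) and Tbc1d15 (0.35). By contrast, 306 loci lay within 0.5 of Aldh1a2, the nearest being Zfp740 (0.04), Srprb (0.09) and Lsg1 (0.10), so its levels were those of many genes.

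The other markers had between 24 and 92 loci within the same distance. Nearest to Wt1 were Psmc3ip (0.11), Ptpn13 (0.18) and Snrpg (0.21). The closest to Tcf21 were Suv39h1 (0.15), Asb4 (0.24) and H2afy2 (0.31), and those to Upk1b were Tgfb2 (0.14), Pbx3 (0.14) and Hebp1 (0.18). Msln was closest to Tmem88b (0.21), Pcdh9 (0.25) and Gxylt2 (0.27). Krt8 had 9230110C19Rik (0.07), E2f1 (0.21) and Dusp4 (0.21), and Krt18 had Cdc7 (0.13), Erbb2 (0.14) and Lig1 (0.25).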

How the data were processed

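Total RNA of mouse heart ventricle was sequenced as paired-end reads from 1 library for each stage. Per the study's methods and the submitters' processing notes, the authors mapped reads to mm10 with TopHat2 and Bowtie and assembled and quantified them with Cufflinks. The authors deposited FPKM values per merged locus, scaled to exon length and library size, and the exons of the merged transcripts. Release numbers of these tools, and how multiply mapped reads were counted, are not given in the sources used here. Read counts were not used here. From the lowest steps of the values, 1 FPKM over 1 kb stands for about 13.8, 26.7 and 13.8 fragments in the order of the stages, which is approximate and covers counting error only.

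Members were matched by gene name through the annotation, and loci were kept if any library reached 1 FPKM. Changes were computed on the log2(FPKM + 1) scale, where those of low genes come out too small, and were counted at 1 or more. The members and gene lists were chosen with earlier results of these data known. All 10 members are named in every comparison. From every other list, the text draws on the 2 genes with the highest FPKM in any library and the 2 with the largest change from E13.5 to the adult, and names the 3 loci nearest to each member by Euclidean distance. Neighbouring genes were taken by position, and Upk3a, Nkx2-1, Sftpc and Lhx1 were named after their values were seen. Gene roles are background. The counting of changes was tested on simulated data with counting noise and large planted changes. These data hold no variation between hearts or libraries, so that test checks the computation only. Alternatives were a pseudocount of 0.1, other scalings, other filters and a call past 2. The 9 loci without transcripts in the annotation were left out. The values of 1 gene that the rule picks are not reported here. Calculations used Python 3.11.15, numpy 2.4.6, pandas 2.3.3 and matplotlib 3.10.9.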

Additional observations from a re-analysis of the deposited data

How the results depend on the processing

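No paired analysis was possible because no stage has more than 1 library, and for the same reason no library could be left out. Markers lower in the adult numbered 6 to 8 from E13.5 and 6 or 7 from E10.5, against 8 and 7 as reported. These counts are of 10 markers, except for 9 with a minimum of 5 FPKM and 8 without joined loci. The share of all mRNA loci lower from E13.5 ran from 9.88% with a call past 2 to 36.9% with a pseudocount of 0.1. From E10.5 it was 8.1% and 32.7% in the same settings. With the locus antisense to Tcf21 counted as an 11th, an alternative chosen after seeing the data, 9 of 11 were lower from E13.5 to the adult. From E10.5 to E13.5, 3 of 11 were higher. The shares of all mRNA loci were 32.1% and 5.89%. The values of the antisense locus at E10.5 and in the adult rest on very few fragments. Counts of 0 to 2 were less stable. The number higher at E13.5 than at E10.5 was 1 in place of 2 with median-of-ratios factors, without globin and mitochondrial loci, with a minimum of 5 FPKM (which drops Msln) and without joined loci, and 0 with a call past 2. The share of all mRNA loci higher in this comparison ran from 0.851% with a call past 2 to 10.2% with a pseudocount of 0.1. Without joined loci, 0 markers were lower at E13.5, and 0 were higher in the adult than at E13.5, since Aldh1a1 is left out. A call past 2 also gave 0 higher in the adult. With a pseudocount of 0.1, the median change from E13.5 to the adult was -2.79, and 1 marker (Msln) was higher in the adult than at E10.5.

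A second alternative chosen after seeing the data, scaling to the sum of all loci except globin and mitochondrial ones, so that short structured RNAs count, gave 1 marker higher at E13.5, 1 higher in the adult (against E10.5), and a median of -1.46 from E13.5 to the adult. In that scaling 14.7% of mRNA loci were lower and 25.7% higher from E13.5 to the adult, and with the same loci left out of the sum of mRNA loci 23.6% were lower and 17.2% higher. The change of Wt1 from E10.5 to E13.5 was -0.03 with median-of-ratios factors, so its direction between the embryonic stages depends on the scaling. Within-library ratios stayed within 1.5 times in 18 of 18 repeats with 0.1 FPKM added to both genes. The lowest value in these ratios is 0.621 FPKM, for Krt8 in the adult, so this addition could not move a ratio that far. It has no bearing on joined loci or on low fragment numbers. Of 30 percentiles, 26 moved when taken among all mRNA loci. Values near 1 FPKM rest on few fragments.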
